A study of Rattus norvegicus with 32 samples.

Results

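The CA fields of the hippocampus were compared between rats given methamphetamine (METH) and rats given saline (Sal). The 8 RNA-seq samples used, of 32 in the series, are the 4 labelled CA METH and the 4 labelled CA Sal, chosen by their titles. Male Sprague-Dawley rats received METH at 10 mg/kg, or saline at 1 mL/kg, in 4 intraperitoneal injections 2 h apart, and the brain was collected 24 h after the last dose. No genetic alteration was described in either group. The cortex was removed before the CA and the dentate gyrus (DG) were dissected from one hemisphere, so a sample holds every cell type of the piece, and fewer cells of a type and less RNA per cell cannot be told apart. The labels do not say whether the 4 samples of a group came from separate animals, so p-values measure the spread between these samples. Of 28914 genes in the count files, 14612 had enough reads to be tested.

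METH is taken up by monoamine terminals and releases dopamine, noradrenaline and serotonin. The CA fields hold the pyramidal neurons of the hippocampal output, beside interneurons, glia and vessels, and receive monoamine fibres. Binge dosing of METH is known for hyperthermia, oxidative stress and glial reactions in the rodent brain. In this region a day after the binge, the question is which genes differ from saline and by how much.

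Total counts of the 8 samples lay between 12847406 and 19350101. Levels are given in CPM, counts scaled by upper-quartile library sizes, and 1 read was worth between 0.0547 and 0.0800 CPM. The CA1 markers Wfs1 (175 to 315 CPM) and Mpped1 (124 to 254 CPM), the CA2 and CA3 marker Cpne4 (40.1 to 409 CPM) and the excitatory marker Slc17a7 (1285 to 2084 CPM) were present in all 8 samples. The CA1 markers Fibcd1 and Spink8 and the CA3 marker Iyd were at or near 0 (0 to 0.204 CPM). Prox1, the defining factor of dentate granule neurons, ranged from 31.9 to 285 CPM. On the first principal component, which held 29.5% of the variance, Sal 4 and METH 1 stood apart from the other 6 samples. Ttr, the defining gene of the choroid plexus, was at 1801 CPM in Sal 2 and 294 CPM in METH 2 and between 1.03 and 12.5 CPM elsewhere. On the second component (25.5%) Sal 1 stood apart.

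No gene passed the thresholds for a differentially expressed gene (DEG, adjusted p under 0.01 and a change above 1.5-fold) by the quasi-likelihood test of edgeR, with p-values adjusted after Benjamini and Hochberg. At an adjusted p under 0.1 in this test were 4 genes (0.0274%), Top2a, Cbs, Dbp and Ccnd1. DESeq2 called 13 of 13860 genes at an adjusted p under 0.01 (0.0938%), and edgeR's likelihood ratio test called 9 DEGs (0.0616%). At an unadjusted p under 0.05, 639 genes were higher in METH (4.37% of those tested) and 407 were lower (2.79%), in all 7.16%, whereas without any threshold 51.1% of all genes were higher and 48.9% lower. The groups did not overlap for 377 higher genes (2.58%) and 280 lower genes (1.92%). Since these genes did not pass the adjusted test, they are described below as higher or lower in these 8 samples, and "at p under 0.05" means unadjusted. Differences were of modest size, with 255 genes at p under 0.05 differing by more than 1.5-fold (169 higher, 86 lower) and 51 by more than 2-fold (30 higher, 21 lower).

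The excess of higher over lower genes remained when any sample was left out. Without METH 1 the counts were 1041 higher and 598 lower, the most of the 8 such fits, and without Sal 1 they were 389 and 234, the fewest. Without METH 4 they were 405 and 260. Leaving out Sal 2 and METH 2, the samples with choroid plexus genes, gave 547 higher and 346 lower genes, and leaving out Sal 4 and METH 1 gave 883 and 553. A core of 369 genes (229 higher, 140 lower) was at p under 0.05 in the fit of all 8 samples and in each of the 8 fits that leave out a sample, and for 279 of these the groups did not overlap. The sequencing runs bear unevenly on the groups, since the files of Sal 1 and 2 are marked as merged, while Sal 3, METH 3 and METH 4 belong to a run marked RNA2 and Sal 4, METH 1 and METH 2 to one marked RNA3. No METH sample is marked as merged. With the run as a covariate, the fold change therefore rests on Sal 3 and Sal 4 against the METH samples. Counts under that setting thus compare fewer saline samples and do not measure the effect of the run alone.

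**Figure D1:**
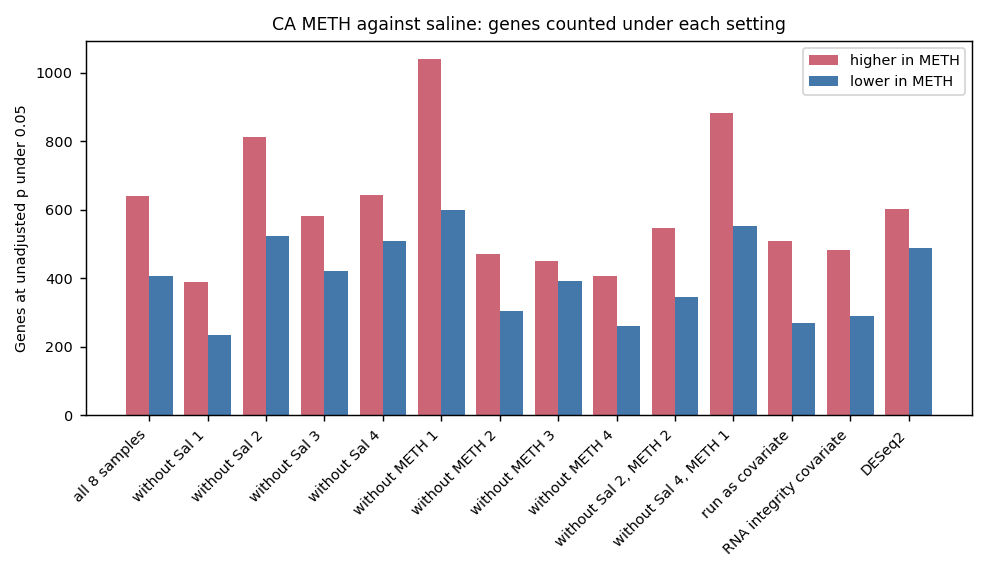
Number of genes at an unadjusted p under 0.05 (vertical axis) that were higher (red) or lower (blue) in METH, in the fit of all 8 CA samples, with each sample or pair of samples left out, with the sequencing run or the RNA integrity number as a covariate, and in DESeq2. Higher genes outnumber lower genes under every setting drawn, and leaving out METH 1 gives the highest counts, 1041 and 598.

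The higher genes with the smallest p include genes of sulphur metabolism, circadian output, cell-cycle entry, glia and vessels. Values in brackets after a gene are log2 fold changes of METH against saline ± SE, with 4 samples in each group. Cbs (cystathionine beta-synthase, the first enzyme of transsulphuration, rn6 chr20:10361988-10386751) stood at 49.3, 49.3, 53 and 50.3 CPM in Sal 1 to 4 and at 70.3, 82.8, 78.7 and 88.8 CPM in METH 1 to 4. Every METH sample lay above every saline sample, and the log2 fold change was 0.67 ± 0.08 (SE) with an edgeR quasi-likelihood adjusted p of 0.0887. Dbp, the clock-driven activator named for the albumin D-box (chr1:101687855-101692846), was at 81.9, 87.1, 63.8 and 80.9 CPM in saline and at 137, 150, 148 and 130 CPM in METH. Its groups were likewise apart, by 0.85 ± 0.10 on the log2 scale, and its adjusted p in the same test was 0.0887. Ccnd1, cyclin D1 of the G1 phase (chr1:218090750-218100325), was at 25.8, 28.8, 26.4 and 26.3 CPM in saline and at 38.2, 37.2, 39.2 and 39.6 CPM in METH. The METH samples spanned only a narrow range above the saline samples (0.52 ± 0.07, adjusted p in the same test 0.0979).

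Several of the other higher genes are expressed by astrocytes or vessels. Fam107a, which encodes an actin-binding protein abundant in astrocytes, was at 491, 418, 504 and 520 CPM in saline and 834, 641, 795 and 706 CPM in METH (0.62 ± 0.11). Slco1c1, a thyroid hormone carrier of the blood-brain barrier, was at 49.97, 57.2, 57.8 and 44.6 CPM in saline and 72.2, 72.0, 84.7 and 76.8 CPM in METH (0.54 ± 0.10). For both, the lowest METH sample exceeded the highest saline sample. Nos3, the endothelial nitric oxide synthase, was at 4, 5.83, 3.97 and 5.36 CPM in saline and 7.92, 9.06, 8.43 and 8.37 CPM in METH (0.82 ± 0.16). Counting ignored the strand, and Nos3 overlaps Atg9b on the other strand, so its reads cannot be assigned to it with certainty. Id4, an inhibitor of bHLH factors expressed in astrocytes and stem cells, was at 27.2, 27.2, 32.9 and 26.4 CPM in saline and 36.7, 46.8, 48.7 and 40.5 CPM in METH (0.60 ± 0.11). Its groups did not overlap.

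Hdac5, a class IIa histone deacetylase that shuttles between nucleus and cytoplasm with neuronal activity (chr10:90140183-90151042), was at 73.9, 102, 87.0 and 109 CPM in saline and 146, 134, 139 and 145 CPM in METH. The METH samples were tightly grouped above a wider spread of saline samples (0.60 ± 0.12). The remaining higher genes of the 12 with the smallest p were Rbm14 (0.43 ± 0.07), Fam43b (0.75 ± 0.14), Pnpla7, a lysophospholipase (0.74 ± 0.14), and Fbln1, a matrix protein (0.53 ± 0.10).

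Among lower genes, Top2a had the smallest p. DNA topoisomerase II alpha, the form used by dividing cells (chr10:86901007-86932154), was at 3.89, 3.32, 3.62 and 2.76 CPM in saline and at 0.880, 1.13, 1.00 and 1.22 CPM in METH. The lowest saline sample was above the highest METH sample by a wide margin (log2 fold change -1.67 ± 0.20, adjusted p 0.0887 in edgeR's quasi-likelihood test), on as few as 11 reads in a sample. RT1-N2, a class Ib major histocompatibility gene with close paralogs among which reads may be split, was at 9.19, 5.31, 5.14 and 7.10 CPM in saline and 1.76, 3.09, 2.31 and 2.65 CPM in METH (-1.44 ± 0.25). Slc4a11, a membrane transporter of the SLC4 family, was at 5.91, 6.19, 5.84 and 5.36 CPM in saline and 2.64, 0.906, 3 and 2.31 CPM in METH (-1.39 ± 0.30). In both genes all 4 METH samples were below all 4 saline samples.

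Rbm3, the cold-inducible RNA-binding protein (chrX:15098904-15102340), was at 33.8, 33.8, 40.5 and 39.7 CPM in saline and at 20.2, 22.0, 28.5 and 19.7 CPM in METH (-0.71 ± 0.13). Cirbp, the other classical cold-inducible RNA-binding gene, was named after its values were seen. It was also lower without overlap, at 43.1 to 52.4 CPM in saline and 33.7 to 42.2 CPM in METH (-0.27 ± 0.10, unadjusted p 0.0197). Acat1, a mitochondrial thiolase, was at 63.0, 61.1, 66.7 and 54.3 CPM in saline and 37.7, 47.6, 48.5 and 42.4 CPM in METH (-0.48 ± 0.10). Prrt2, a presynaptic protein, was lower by a log2 fold change of -0.65 ± 0.15. The other lower genes of the 12 were Klhdc7a (-1.25 ± 0.30), Medag (-1.24 ± 0.30), Mxra7 (-0.70 ± 0.17), Sec22b (-0.34 ± 0.08), Srsf5, a splicing factor (-0.28 ± 0.07), and Casd1 (-0.26 ± 0.06).

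The 24 genes were chosen on these samples for the smallest p, for groups that do not overlap and for a stable sign, so those features are descriptions. Refits with the run or with the RNA integrity number as a covariate use the same values and are not independent of that choice. In the refit with the run, Sal 1 and Sal 2 do not bear on the fold change. All 24 were at p under 0.05 in both refits, as were 414 of the 1046 genes in the first and 644 in the second. DESeq2's 13 genes were Cbs, Ccnd1, Dbp, Fam107a, Id4, Pnpla7, Rbm14 and Slco1c1 on the higher side and Rbm3, RT1-N2, Slc4a11, Top2a and LOC108348061 on the lower side. LOC108348061 lies opposite Gsta3, a glutathione transferase gene, and was lower by a log2 fold change of -0.74 ± 0.12 with the same limit on strand.

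**Figure D2:**
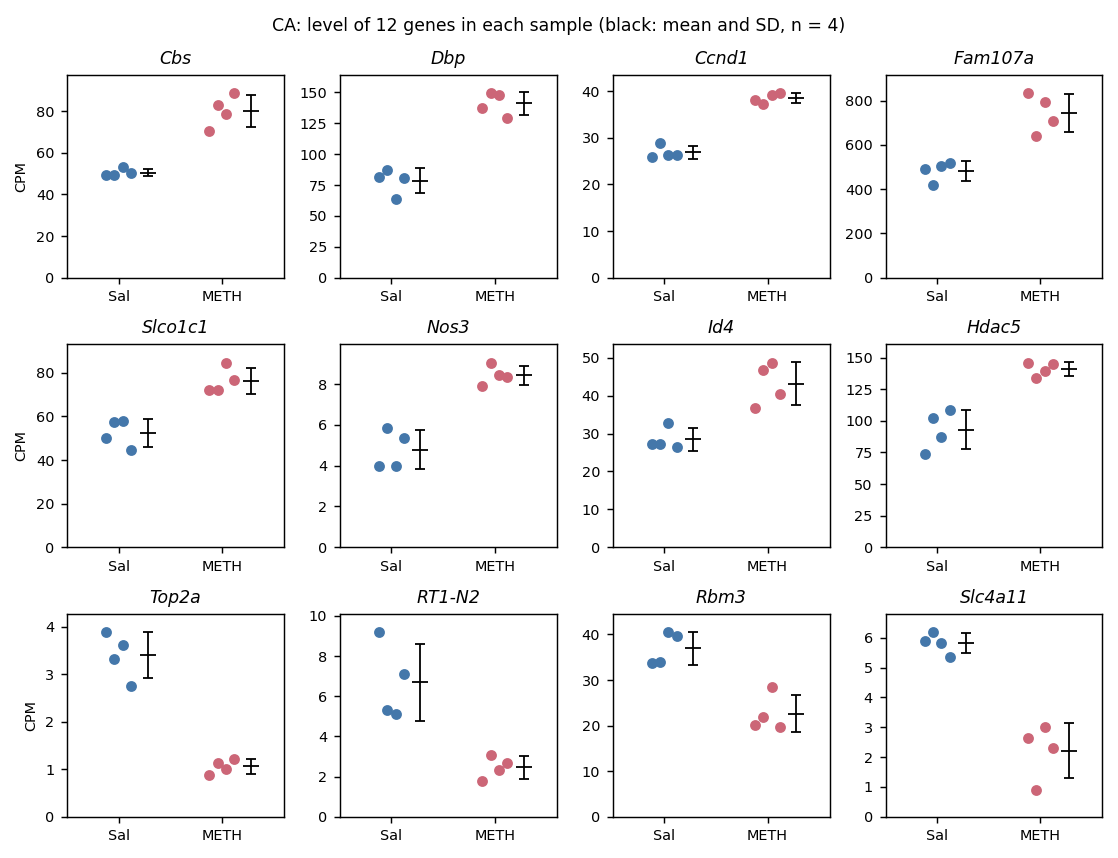
Level in CPM (vertical axes, from 0) of 12 genes in each CA saline (blue) and METH (red) sample, with the mean and SD of 4 samples in black. The first 8 panels are higher in METH and the last 4 are lower, with no overlap of the groups in any panel. Top2a lies between 2.76 and 3.89 CPM in saline and between 0.880 and 1.22 CPM in METH.

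Top2a was not alone among the genes of dividing cells. The hippocampus holds few cycling cells (neural progenitors, oligodendrocyte precursors and microglia), and genes of S phase and mitosis are therefore read at low levels. Of 34 such genes tested, 26 were lower and 8 higher in METH, with 6 lower and 1 higher at p under 0.05, beside 2.79% and 4.37% of all genes. The median log2 fold change of the list was -0.35, against 0.01 over all genes, and it ranged from -0.40 to -0.29 when each sample was left out, with between 4 and 8 lower genes. It held 9 lower genes without Sal 2 and METH 2 and 7 without Sal 4 and METH 1. With the run as a covariate the median was -0.21, with 5 lower genes. The summed level of the list was 161 to 188 CPM in saline and 136 to 155 CPM in METH, without overlap. It was highest in Sal 1 and Sal 3 (188 and 176 CPM), which also held the most dentate granule markers (1070 and 1449 CPM). For those markers Sal 2 and Sal 4 were at 722 and 759 CPM, and METH 1 to 4 at 636, 866, 1037 and 943 CPM. Of the 14 dentate granule markers tested, 11 were lower and 3 higher in METH, with a median of -0.44. The part of that tissue in the difference was not tested.

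Beside Top2a, the lower members at p under 0.05 act in mitosis or cytokinesis. Ect2, the RhoA activator of cytokinesis, was at 1.04, 0.885, 0.934 and 1.03 CPM in saline and 0.320, 0.302, 0.375 and 0.408 CPM in METH (-1.44 ± 0.26). Cenpf, a kinetochore protein, was at 2.13, 1.70, 2.69 and 2.05 CPM in saline and 1.44, 1.13, 1.25 and 0.952 CPM in METH (-0.85 ± 0.23). Knl1, the kinetochore scaffold, was at 1.31, 1.03, 1.11 and 0.946 CPM in saline and 0.880, 0.453, 0.375 and 0.476 CPM in METH (-1.03 ± 0.31). In these 3 genes the groups did not overlap. The next members were named after their values were seen. Plk1, the polo-like mitotic kinase, had a log2 fold change of -0.67 ± 0.25, and Anln, the cytokinetic anillin, of -0.50 ± 0.20. Mcm2, a subunit of the replicative helicase, was the 1 higher member (0.44 ± 0.14). The general proliferation marker Mki67 overlapped between groups, at 8.70 to 19.4 CPM in saline and 4.80 to 14.6 CPM in METH (-0.31 ± 0.34, unadjusted p 0.393). Higher Ccnd1, at the entry to the cycle, and lower mitotic genes were thus seen in the same samples.

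Many mitotic genes carry a cell cycle homology region (CHR), a short element near the start of transcription, and for that reason the start regions of the 6 lower genes are printed here. The sequences are RefSeq's for the GRCr8 build, from 80 bases before to 15 bases after the annotated start, 5′ to 3′ along the gene. Capitals mark the letters TTTGAA or, on the other strand, TTCAAA. The motif and window were chosen after the gene list was seen.
Top2a (GRCr8, chr10:84473079-84473173, minus strand): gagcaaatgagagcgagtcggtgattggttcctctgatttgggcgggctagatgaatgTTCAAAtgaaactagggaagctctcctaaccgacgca
Ect2 (GRCr8, chr2:111966612-111966706, minus strand): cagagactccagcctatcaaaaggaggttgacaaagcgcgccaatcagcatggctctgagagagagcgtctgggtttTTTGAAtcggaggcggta
Cenpf (GRCr8, chr13:103760872-103760966, minus strand): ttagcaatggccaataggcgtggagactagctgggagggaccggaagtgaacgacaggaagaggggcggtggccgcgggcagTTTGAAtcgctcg
Knl1 (GRCr8, chr3:126490886-126490980, plus strand): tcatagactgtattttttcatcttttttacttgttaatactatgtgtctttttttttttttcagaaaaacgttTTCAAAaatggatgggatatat
Plk1 (GRCr8, chr1:186147578-186147672, plus strand): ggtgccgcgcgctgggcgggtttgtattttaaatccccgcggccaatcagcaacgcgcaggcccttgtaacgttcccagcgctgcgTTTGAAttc
Anln (GRCr8, chr8:29197499-29197593, minus strand): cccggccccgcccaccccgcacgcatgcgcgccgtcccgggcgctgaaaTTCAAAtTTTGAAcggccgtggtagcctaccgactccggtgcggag

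Positions are read against this annotated start, with its first base as 1 and the base before it as -1. The first base of the motif was at -22 in Top2a, -3 in Ect2, 3 in Cenpf, -7 in Knl1 and 7 in Plk1. In Knl1 the annotated start falls on the letters atg, behind a run of t that ends in cag. Whether transcription of Knl1 begins there was not tested, so its motif may lie outside the promoter. Anln held it on both strands, at -31 and -24. All 6 windows held the motif within 50 bases of the annotated start, on either strand. So did 2.87% of the 10440 matched promoters of genes tested in the CA, 5.02% of all 27457 promoters, and 30.4% of the 23 matched promoters of the other cell cycle genes tested. In the wider window, from 250 bases before to 50 bases after the start, these shares were 11.3%, 18.1% and 52.2%. A match of 6 letters is a description of the window and not evidence that a factor binds there.

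Several clock genes were higher. The circadian clock runs in most cells as a loop in which CLOCK and BMAL1 activate the Per, Cry and Nr1d genes and the D-box activators, whose products feed back on the loop. Of 21 clock genes tested, 16 were higher and 5 lower, with 5 higher and 1 lower at p under 0.05 and a median of 0.20. As samples were left out the median ran from 0.08 to 0.26, with 3 to 6 higher and 0 to 2 lower genes. With the run as a covariate 2 were higher and 2 lower at p under 0.05. Beside Dbp, Per2 was at 48.6, 69.8, 63.8 and 74.7 CPM in saline and 76.7, 91.2, 81.3 and 83.6 CPM in METH (0.38 ± 0.13), with no overlap. Nr1d2, a nuclear receptor that represses Bmal1, was at 71.0, 79.4, 74.7 and 91.5 CPM in saline and 108, 89.3, 97.5 and 91.4 CPM in METH (0.29 ± 0.10), and its groups overlapped slightly. Per1 (0.23 ± 0.10) and Per3 (0.27 ± 0.11, named after its values were seen) were also higher. Tef, the D-box relative of Dbp, went the other way (-0.31 ± 0.13). The hour of dissection of each sample was not used here.

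Genes of the ERK pathway that restrain it were higher in most members. Activity and growth factors switch on ERK, which in turn induces Dusp phosphatases, Sprouty and Spred inhibitors and Etv transcription factors. Of 13 such genes tested, 10 were higher and 3 lower, 5 of them higher and none lower at p under 0.05, with a median of 0.27 and between 3 and 5 higher genes when a sample was left out, but 1 with the run as a covariate and 3 without Sal 2 and METH 2. Spred2 was at 46.1, 51.4, 49.9 and 55.9 CPM in saline and 62.0, 68.7, 60.9 and 64.1 CPM in METH (0.33 ± 0.08). Spry4 was at 13.2, 11.5, 15.6 and 15.8 CPM in saline and 22.0, 18.1, 16.6 and 22.0 CPM in METH (0.49 ± 0.14). Both were without overlap, as was Etv4, at 4.32 to 5.68 CPM in saline and 5.81 to 9.13 CPM in METH (0.51 ± 0.18). Spred3 (0.48 ± 0.17) was also higher.

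Activity-induced genes were less uniform. Of 34 tested, 26 were higher and 8 lower. At p under 0.05 were 4 higher and 1 lower, beside 4.37% and 2.79% of all genes. The median was 0.22 and varied from 0.05 to 0.43 as samples were left out, and the summed level of the list was highest among saline samples in Sal 4 (1886 CPM). Klf4, a zinc-finger factor, was at 2.30, 3.91, 2.69 and 3.39 CPM in saline and 5.04, 5.96, 4.50 and 7.48 CPM in METH (0.91 ± 0.23), without overlap. Sik1, a salt-inducible kinase, was at 9.85, 16, 10.0 and 21.0 CPM in saline and 32.8, 25.7, 18.2 and 27.6 CPM in METH (0.88 ± 0.27), and METH 3 lay below Sal 4. Egr3 was lower, at 64.2 to 93.4 CPM in saline and 54.0 to 66.3 CPM in METH (-0.35 ± 0.12). The classical markers Fos (0.51 ± 0.70) and Npas4 (-0.60 ± 0.91) varied more within groups than between them. Higher genes of this list at p under 0.05 numbered 2 to 12 as samples were left out, and 11 without Sal 4 and METH 1. They numbered 2 without Sal 2 and METH 2, and 2 with the run or with the RNA integrity number as a covariate.

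In the fit of all 8 samples, endothelial genes had the largest share of higher members at p under 0.05 among the lists. These genes mark the cells that line brain vessels and form the barrier. Of 20 tested, 17 were higher and 3 lower, and 9 were higher and none lower at p under 0.05, with a median of 0.39 (0.29 to 0.46 as samples were left out, with 6 to 11 higher genes). The higher genes numbered 13 without Sal 2 and METH 2, 7 without Sal 4 and METH 1 and 11 with the run as a covariate. The summed level of the list was 438, 475, 399 and 414 CPM in saline and 488, 472, 576 and 553 CPM in METH, so METH 2 lay just below Sal 2. Sox18, an endothelial transcription factor, was at 2.41, 2.95, 3.33 and 2.76 CPM in saline and 4.16, 5.66, 5 and 4.29 CPM in METH (0.74 ± 0.17), without overlap. Eng, the TGF-beta co-receptor endoglin, was at 13, 17.7, 12.1 and 13.4 CPM in saline and 16.1, 23.4, 21.7 and 23.5 CPM in METH (0.59 ± 0.16), with METH 1 below Sal 2. Vwf (0.48 ± 0.14) and Flt1 (0.39 ± 0.14) were named after their values were seen. Cldn5, a defining marker of these cells, was listed at 0 in all 8 samples.

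Mural cell and fibroblast genes were also higher, in 15 of 20, with 4 higher and none lower at p under 0.05 and a median of 0.40. The higher genes numbered 3 to 8 as samples were left out, and 7 without Sal 2 and METH 2, with a median of 0.54. Their summed level ran from 440 to 880 CPM in saline and from 556 to 957 CPM in METH, and in each group the sample with choroid plexus genes, Sal 2 or METH 2, was the highest. Sparc, a matrix protein, was at 267, 388, 375 and 227 CPM in saline and 336, 606, 561 and 550 CPM in METH (0.71 ± 0.22). Dcn, decorin of meningeal and perivascular fibroblasts, was at 9.03, 11.1, 17.8 and 7.73 CPM in saline and 11.4, 31.1, 17.6 and 28.8 CPM in METH (0.96 ± 0.35). Both overlapped, Sparc through METH 1 and Dcn through METH 1 and METH 3. The share of vessels or meninges in each piece was not measured, and its part in these differences was not tested.

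Most astrocyte genes were higher by small amounts. Of 18 homeostatic astrocyte genes, 17 were higher, with 3 at p under 0.05 and a median of 0.15, and 7 were higher at p under 0.05 without METH 1. Aldoc, the glial aldolase, was at 495, 493, 594 and 494 CPM in saline and 554, 649, 747 and 760 CPM in METH (0.38 ± 0.12). Slc1a3, the glutamate carrier GLAST, was at 763, 583, 787 and 603 CPM in saline and 747, 859, 996 and 931 CPM in METH (0.37 ± 0.13). For both, METH 1 was the METH sample inside the saline range. Of 15 reactive astrocyte genes, 11 were higher, 3 of them at p under 0.05 (Aspg, Ggta1 and Timp1, which overlaps Syn1 on the other strand). Gfap, the defining gene of astrocyte reaction, was at 709, 359, 561 and 369 CPM in saline and 568, 550, 645 and 592 CPM in METH (0.24 ± 0.21, unadjusted p 0.29), with full overlap.

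Of 16 radial glia and stem cell genes, 5 were higher and none lower at p under 0.05, with a median of 0.16. With the run as a covariate 3 were higher and 1 lower, and 2 were higher without Sal 2 and METH 2. The median was 0.05 with the RNA integrity number as a covariate. Sox2 was at 45, 46.5, 50.2 and 42.9 CPM in saline and 51.1, 56.6, 58.3 and 53.5 CPM in METH (0.25 ± 0.08), without overlap. Id1, a relative of Id4, was higher by 0.59 ± 0.20 and Tnc, the matrix protein tenascin C, by 0.32 ± 0.12 on the log2 scale. Of 14 genes of newborn neurons, 2 were higher and none lower at p under 0.05. They were Sox11 (0.64 ± 0.21) and Dpysl5 (0.72 ± 0.21), while Dcx, the defining marker, had a log2 fold change of 0.17 ± 0.13. Microglial genes were higher in 15 of 20, with C1qb (0.23 ± 0.08) and Tyrobp (0.36 ± 0.13) at p under 0.05 and without overlap. As samples were left out, 1 to 3 microglial genes were higher and 0 to 2 lower, with a median of 0.02 to 0.19. With the run as a covariate 4 were higher.

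**Figure D3:**
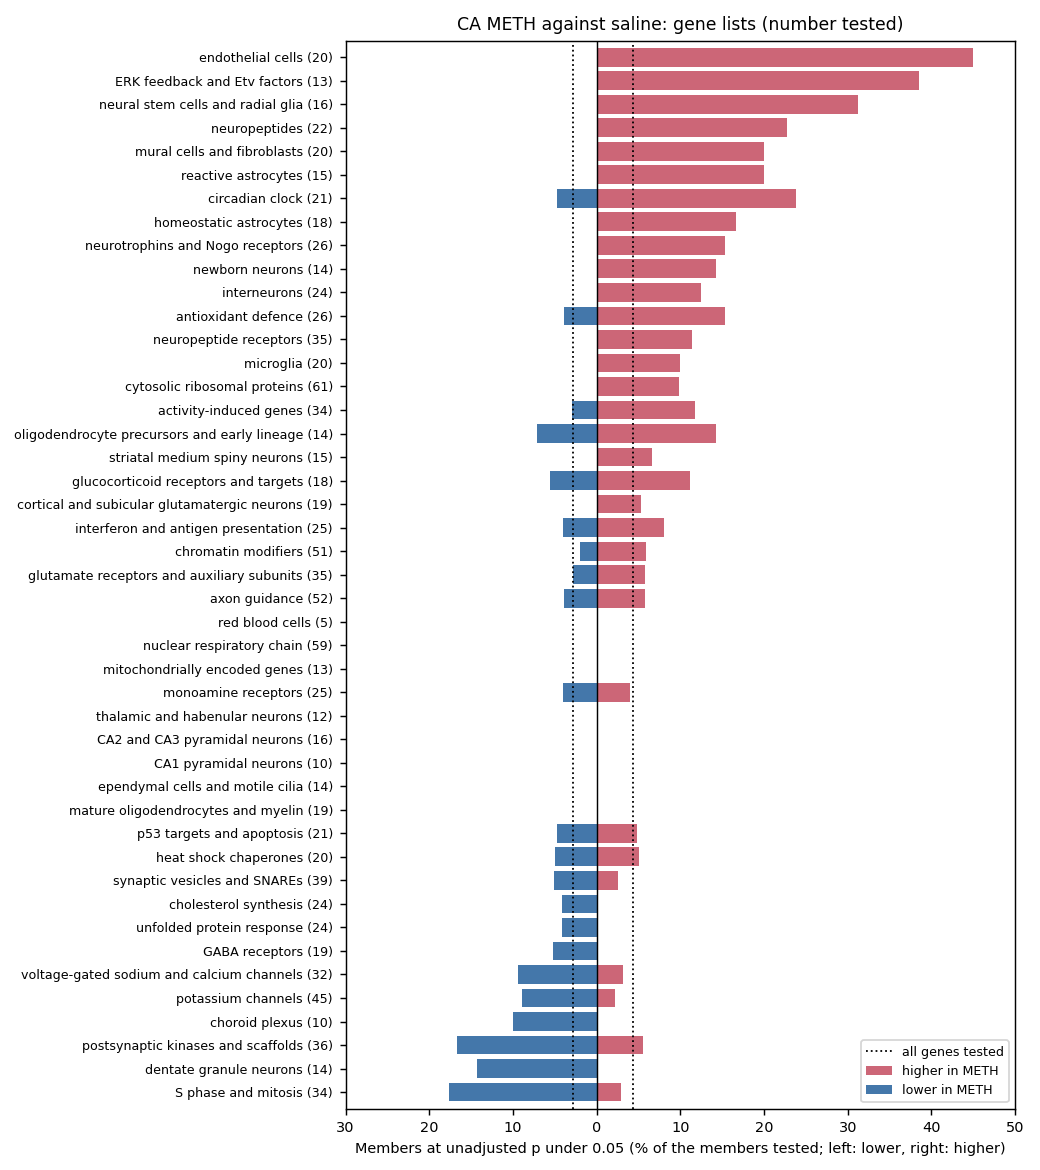
Percent of the tested members of each gene list (number in brackets) at an unadjusted p under 0.05, higher in METH to the right in red and lower to the left in blue. Dotted lines mark the percent over all genes tested, 4.37 higher and 2.79 lower. Endothelial genes extend farthest to the right and genes of S phase and mitosis farthest to the left.

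Interneuron genes and neuropeptides were higher in most members. Interneurons of the CA fields inhibit pyramidal cells, and many release peptides beside GABA. Of 24 interneuron genes tested, 20 were higher and 4 lower, with 3 higher and none lower at p under 0.05 and a median of 0.25. The higher genes numbered 1 to 6 as samples were left out, 6 without Sal 4 and METH 1, and 1 with the run or with the RNA integrity number as a covariate. Nos1, the neuronal nitric oxide synthase, was at 69.3, 108, 112 and 56.7 CPM in saline and 144, 253, 146 and 251 CPM in METH (1.20 ± 0.28). All 4 METH samples were above all saline samples. Tac1, the precursor of substance P, was at 2.02, 6.49, 4.03 and 6.54 CPM in saline and 7.52, 10.5, 7.18 and 8.37 CPM in METH (0.83 ± 0.33), also without overlap. Vip overlapped through Sal 4 (0.74 ± 0.31), and Gad1, the enzyme of GABA synthesis, was at 182 to 238 CPM in saline and 183 to 271 CPM in METH (0.10 ± 0.13).

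Of 22 neuropeptide genes, 19 were higher and 3 lower, with 5 higher and none lower at p under 0.05, a median of 0.40 and between 1 and 9 higher genes as samples were left out, and 2 with the run as a covariate. Cartpt, the precursor of the CART peptide, was at 1.42, 7.15, 2.28 and 1.42 CPM in saline and 1.1, 21.3, 6.75 and 32.2 CPM in METH (2.34 ± 0.89). Its difference rested on METH 2 and METH 4, and METH 1 was the lowest of all samples. Pnoc, the precursor of nociceptin, was at 4.38, 4.50, 4.26 and 4.49 CPM in saline and 7.04, 4.76, 9.62 and 5.03 CPM in METH (0.59 ± 0.23), without overlap. Of 35 neuropeptide receptors, 26 were higher, 4 of them at p under 0.05 and none lower, with 1 to 8 as samples were left out and 2 without Sal 2 and METH 2. Oprm1, the mu opioid receptor, was at 7.66, 8.55, 8.87 and 7.49 CPM in saline and 8.48, 10.9, 10.6 and 11.1 CPM in METH (0.34 ± 0.12), and METH 1 lay inside the saline range. Nmbr, the neuromedin B receptor, was read at 0.274 to 1.34 CPM in saline and 1.25 to 2.24 CPM in METH (1.23 ± 0.44).

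Monoamine receptors, the nearest to the action of METH, showed 1 higher and 1 lower gene among 25 at p under 0.05. These counts are near the shares over all genes, 4.37% higher and 2.79% lower. The higher genes numbered 1 to 6 as samples were left out, and 3 with DESeq2 and without Sal 2 and METH 2. Lower genes numbered 2 without these samples, and also with the run as a covariate. Htr1b, a serotonin autoreceptor and heteroreceptor, was at 13.1, 16.6, 15.4 and 18.5 CPM in saline and 20.1, 24.2, 24.9 and 24.6 CPM in METH (0.56 ± 0.12), without overlap. Htr6 was lower (-0.53 ± 0.23). Drd1, the D1 dopamine receptor, was at 3.67, 14.4, 6.83 and 7.41 CPM in saline and 12.7, 8.61, 20.9 and 10.5 CPM in METH (0.72 ± 0.41, unadjusted p 0.109). Its highest value was in METH 3, the sample with the highest sum of striatal markers (1406 CPM, beside 538 to 804 CPM in the other 7 samples). The part of that sample's dissection in the Drd1 value was not tested.

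Of 36 postsynaptic kinases and scaffolds, 25 were lower and 11 higher, with 6 lower and 2 higher at p under 0.05, beside 2.79% and 4.37% of all genes, while the median was -0.08. The lower genes numbered 3 to 8 as samples were left out. With the RNA integrity number as a covariate 3 were lower at p under 0.05, and without Sal 4 and METH 1, 4 were lower and 4 higher. Camk2g was at 85.1, 82.8, 84.4 and 97.8 CPM in saline and 78.8, 67.0, 65.4 and 65.2 CPM in METH (-0.34 ± 0.09), without overlap. Homer2, a scaffold of metabotropic glutamate receptors, was at 24.1 to 28.3 CPM in saline and higher, at 30.1 to 34.1 CPM, in METH (0.35 ± 0.08). Ppp3r1, the regulatory subunit of calcineurin, was at 612, 367, 560 and 479 CPM in saline and 423, 330, 357 and 362 CPM in METH (-0.46 ± 0.15). Camkk2 was also lower (-0.41 ± 0.14). For Ppp3r1 the highest saline values were in Sal 1 and Sal 3, which also held the highest summed levels of dentate granule markers, 1070 and 1449 CPM beside 636 to 1037 CPM in the other 6 samples. The part of that tissue in the difference was not tested.

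Among 45 potassium channel genes 4 were lower and 1 higher at p under 0.05, and among 32 sodium and calcium channel genes 3 were lower and 1 higher, beside 2.79% lower and 4.37% higher over all genes. The lower genes numbered 2 to 9 and 1 to 6 as samples were left out, and 7 and 5 with DESeq2. With the RNA integrity number as a covariate 2 potassium channel genes and 1 sodium or calcium channel gene were lower, and with the run as a covariate 6 and 1. Cacnb3, a calcium channel beta subunit, was at 157, 166, 155 and 163 CPM in saline and 127, 121, 143 and 137 CPM in METH (-0.28 ± 0.07). Scn8a, a sodium channel of the axon initial segment, was at 701, 514, 540 and 566 CPM in saline and 481, 480, 479 and 510 CPM in METH (-0.25 ± 0.10). Neither overlapped. Kcnip4, a subunit of A-type potassium channels, was lower with overlap (-0.54 ± 0.17), and Kcnn3, a calcium-activated potassium channel, was higher (0.65 ± 0.26). Glutamate receptors and their auxiliary subunits had 2 higher and 1 lower of 35. GABA receptors had none higher and 1 lower of 19 (Gabbr2, -0.24 ± 0.09), and synaptic vesicle genes 1 higher and 2 lower of 39. In the fit of all 8 samples these small counts are near the shares over all genes. With DESeq2 the lower genes of these 3 lists numbered 3, 3 and 5, and as samples were left out 0 to 4, 1 to 2 and 0 to 5.

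Growth factor receptors held a few higher genes. Of 26 neurotrophin and Nogo receptor genes 4 were higher and none lower at p under 0.05, and 2 were higher with the run as a covariate. Ntrk2, the BDNF receptor TrkB, had a log2 fold change of 0.30 ± 0.08 and no overlap. Ret, the GDNF co-receptor, was at 17.5, 9.14, 14.9 and 9.78 CPM in saline and 17.8, 25.2, 26.5 and 23.2 CPM in METH (0.84 ± 0.22), with METH 1 only just above Sal 1. Ngfr, the p75 receptor, was at 0.164, 0.442, 0.350 and 0.946 CPM in saline and 1.20, 1.43, 2.56 and 0.952 CPM in METH (1.75 ± 0.51), on 3 to 41 reads in each sample. Axon guidance genes had 3 higher and 2 lower of 52, near the shares over all genes, among them Rgma (0.47 ± 0.15) and Epha4 (-0.56 ± 0.22). As samples were left out, 1 to 4 axon guidance genes were higher and 0 to 6 lower. With the run as a covariate 1 was higher and 0 were lower.

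Of 51 chromatin modifiers, 3 were higher and 1 lower at p under 0.05, close to the share over all genes. Beside Hdac5 they were Ezh2 (0.36 ± 0.14), Tet3 (0.21 ± 0.09) and Ezh1, the lower gene (-0.20 ± 0.08). Among the transcription and chromatin factors that the study names for METH, Top2a and Hdac5 are described above. Of the others, Dach1 was at p under 0.05 (1.19 ± 0.52, unadjusted p 0.0485), and its levels overlapped, with 8.83 CPM in METH 2 and 1.1 to 4.5 CPM in the rest. Egr2 (1.27 ± 0.63), Egr4 (0.62 ± 0.28), Fosb (0.61 ± 0.31), Meis2 (0.54 ± 0.24), Tshz2 (0.82 ± 0.37), Rarb (0.32 ± 0.19), Dpf3 (-0.79 ± 0.40), Prdm8 (-0.33 ± 0.37) and Bhlhe23 (-1.06 ± 0.84) had an unadjusted p above 0.05. Nrn1, which encodes neuritin, had a log2 fold change of -0.10 ± 0.15.

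Stress pathways showed scattered single genes. Their counts at p under 0.05 stand beside 4.37% higher and 2.79% lower over all genes. Heat shock chaperones had 1 higher and 1 lower of 20, and the higher one, Hspb1, was at 3.78, 3.61, 2.04 and 3.39 CPM in saline and 5.84, 5.96, 4.81 and 5.65 CPM in METH (0.80 ± 0.21), without overlap. The unfolded protein response had 1 lower gene of 24 (Ddit3, which overlaps Mars on the other strand). Of 26 antioxidant genes 4 were higher and 1 lower, and 1 was higher without Sal 4 and METH 1. Mt3, the brain metallothionein, was at 141, 114, 158 and 136 CPM in saline and 161, 180, 174 and 187 CPM in METH (0.35 ± 0.10), and Nfe2l2, the factor NRF2 that controls antioxidant genes, was at 14.6 to 17.9 CPM in saline and 19.1 to 20.2 CPM in METH (0.26 ± 0.09). Both were apart. Among p53 targets and apoptosis genes, Sesn1 (-0.45 ± 0.13) was lower and Bcl2, an inhibitor of apoptosis, higher (0.70 ± 0.28). Of 18 glucocorticoid targets 2 were higher, Sult1a1 (0.47 ± 0.17) and Per1, and 1 was lower, Fkbp5 (-0.53 ± 0.21), with its highest value, 86.7 CPM, in Sal 1. As samples were left out, 0 to 3 glucocorticoid targets were higher and 0 to 2 lower.

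Several lists of cell composition varied widely between the samples of a group. The summed level of 17 choroid plexus markers in the files was 2446 CPM in Sal 2 and 403 CPM in METH 2 and between 7.68 and 33.1 CPM in the other 6, and 1 of 10 members tested was at p under 0.05. Its median log2 fold change of -2.38 turned to 2.17 without Sal 2. Myelin genes were lower in 18 of 19 with none at p under 0.05. METH 1 (9470 CPM summed) exceeded every saline sample (3568 to 7649 CPM), and the other METH samples were at 2759 to 3812 CPM. Without METH 1, 15 myelin genes were lower at p under 0.05, and without both Sal 4 and METH 1, 12 were. Dentate granule markers had 2 lower of 14 (Trpc6 and Dsp), with 0 to 5 as samples were left out. Of 16 CA2 and CA3 markers 14 were lower, none at p under 0.05, with 0 to 4 as samples were left out and 1 with TMM normalization or DESeq2. Of 10 CA1 markers none was at p under 0.05, and at most 1 was, on the higher side, as samples were left out. Mitochondrially encoded genes followed the run, at 32389 to 34386 CPM summed in the RNA2 run samples (Sal 3, METH 3 and METH 4) and 59975 to 67777 CPM in the others, with none of 13 at p under 0.05.

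**Figure D4:**
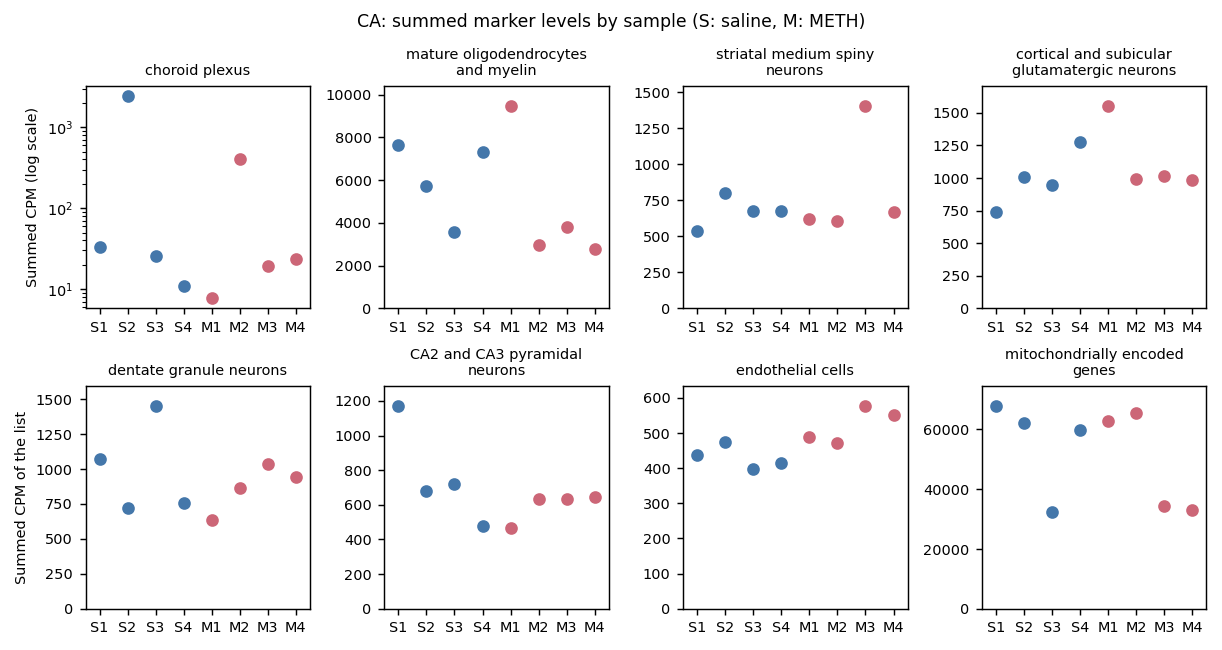
Summed CPM of the marker genes of 7 cell types and of the mitochondrially encoded genes (vertical axes, from 0 except the choroid plexus panel, which has a log axis) in each CA sample, saline in blue and METH in red. Sal 2 and METH 2 stand out for the choroid plexus, METH 1 for myelin and cortical neurons and METH 3 for striatal neurons.

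The DG lies next to the CA fields and was sampled with the same design, and the question is where the response of the CA differs from it. The test of the difference (CA minus DG, 15308 genes in 16 samples) gave no gene with an adjusted p under 0.01 and a difference above 1.5-fold by edgeR's quasi-likelihood test, beside 1242 genes (8.11%) more positive and 1111 (7.26%) more negative in the CA when p was under 0.05 without adjustment. DESeq2 called 66 such genes. The difference holds the CA values by which the 24 leading genes were chosen, so for these it is a description. Hdac5 differed by 0.95 ± 0.18 on the log2 scale (adjusted p 0.126 by edgeR's quasi-likelihood test). It was higher in CA METH and had a log2 fold change of -0.34 in the DG, in both regions without overlap. In the DG the gap was narrow, with the lowest saline sample at 118.3 CPM (Sal 3) and the highest METH sample at 118.0 CPM (METH 4). Dbp differed by 1.5 ± 0.29. Top2a, Rbm3 and RT1-N2, lower in the CA, had DG values of -0.04, 0.17 and -0.01, and differed by -1.63, -0.87 and -1.43. These DG values include the replicates described next, without which the differences of these 3 genes were not at p under 0.05.

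The library numbers in the deposited files bear on this comparison. Numbers 14 and 15 belong to Sal 1 and 2 in the CA but to METH 1 and 2 in the DG, and numbers 20 and 21 belong to METH 1 and 2 in the CA but to Sal 1 and 2 in the DG. Numbers 22 to 25 match in treatment between the CA and the DG. Samples that share a number may come from the same animal, which the labels do not state, and the test of the difference treats them as independent. All samples were kept in the groups of their labels. Without replicates 1 and 2 of the DG, Hdac5 differed by 0.72 and Dbp by 0.96, while Top2a differed by -0.57, Rbm3 by -0.22 and RT1-N2 by -0.34, with unadjusted p of 0.337, 0.385 and 0.560 in edgeR's quasi-likelihood test. As a description of genes chosen in the CA, the difference had the sign of the CA effect in all 24 and p under 0.05 in 16 with these replicates, and in 20 and 7 without them. Of the 1037 CA genes at p under 0.05 that were also tested in the DG, 320 (30.9%) had the same direction there, beside 41.3% of all 14481 genes tested in both, and 400 (38.6%) did so in DG replicates 3 and 4 alone. At p under 0.05 in the DG were 7 (0.675%) with the same and 121 (11.7%) with the opposite direction. Over all genes tested in the DG, 12.8% were at p under 0.05 in either direction, and 6.72% in a fit of replicates 3 and 4 alone. In that fit 14 of 1044 (1.34%) were at p under 0.05 with the same and 48 (4.60%) with the opposite direction, and 42.6% of all 14526 genes tested in both had the same direction. These directions in the DG rest on the labels of its samples, and whether the labels of replicates 1 and 2 are right was not tested.

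The nucleus accumbens (NAc), a dopamine target of the ventral striatum, was set beside the CA in the same way. Library numbers and treatments match between the CA and NAc samples, so the samples of both regions may come from the same animals, which the labels do not state. Of the 24 leading CA genes, 23 had the same direction in the NAc and 9 were at p under 0.05 there, all in the same direction, beside 3.39% of all genes tested in the NAc. Of 1030 CA genes at p under 0.05 tested in the NAc, 795 (77.2%) had the same direction, beside 60.5% of all 14295 genes, and at p under 0.05 were 91 (8.83%) with the same and 2 (0.194%) with the opposite direction. Top2a had a log2 fold change of -1.67 in the NAc, Rbm3 of -0.54, Cbs of 0.42 and Slc4a11 of -1.53. In the subventricular zone (SVZ), where the 4 METH samples carry 2 library numbers and may be fewer independent samples than the fit assumes, 15 of the 24 had the same direction and 1 was at p under 0.05, in the opposite direction, beside 2.58% of all genes tested in the SVZ. Of 1035 CA genes at p under 0.05 tested in the SVZ, 588 (56.8%) had the same direction, beside 51.5% of all 14458 genes, and at p under 0.05 were 32 (3.09%) with the same and 11 (1.06%) with the opposite direction.

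**Figure D5:**
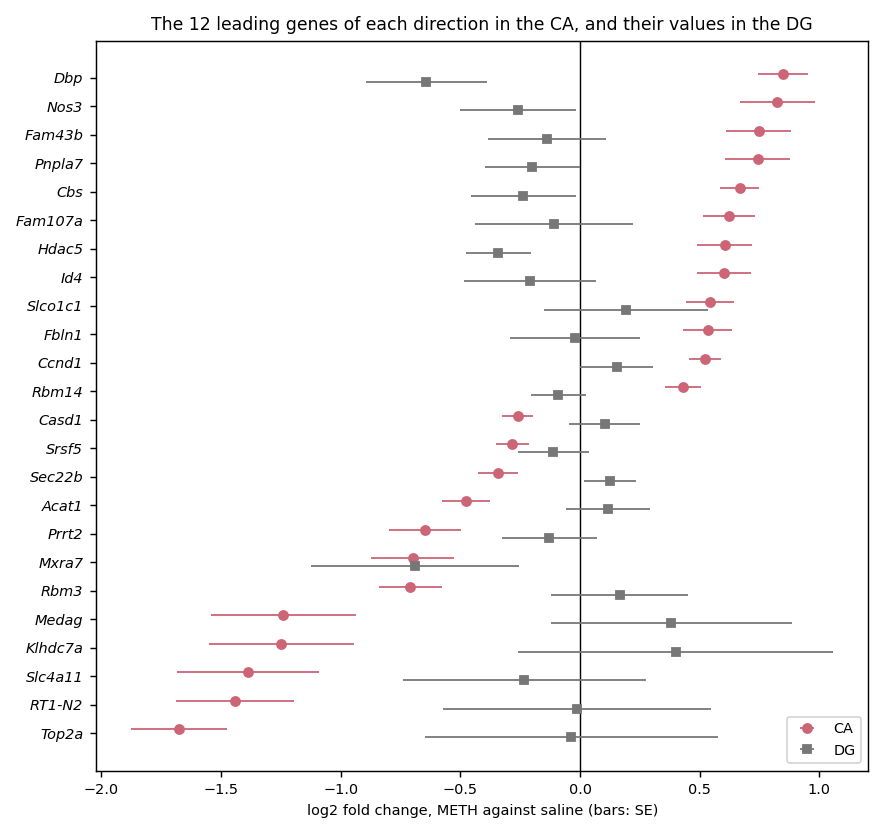
Log2 fold change of METH against saline (horizontal axis, bars are SE) in the CA (red circles) and the DG (grey squares) for the 12 higher and 12 lower genes with the smallest p in the CA among those without overlap. The CA values lie away from 0 because the genes were chosen for this, and the DG values share the direction in 8 of 24.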

How the data were processed

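Per the labels and the methods, ribosomal RNA was removed from total RNA, and the authors trimmed reads (cutadapt 2.7), mapped them to rn6 (STAR 2.5.2b) and deposited raw counts per gene name (featureCounts 1.6.3, mapping quality of at least 10, strand not used). The tool versions are from the submitters' processing notes. The count files name an Ensembl annotation, the methods a UCSC one. Reported p-values were computed here from these counts in R 4.3.3 with edgeR 4.0.16: upper-quartile normalization, filterByExpr, quasi-likelihood test, Benjamini-Hochberg adjustment over all genes tested. The SE was taken from the fold change (log2) and the F statistic. DESeq2 1.42.0 was an alternative. Tables used Python 3.11.15 with pandas 2.3.3. Intervals and p-values cover neither counting bias nor batch.

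Named genes are the 12 of smallest p in each direction among genes without overlap, with a mean of at least 1 CPM, a symbol and a stable sign when samples were left out; genes at an adjusted p under 0.01 in DESeq2; up to 4 genes per list at p under 0.05; and genes the study names. The comparison, the 45 lists and the rules were chosen with earlier results of these data known. On simulated data for this comparison, 136 of 200 genes changed 2-fold were recovered at the DEG thresholds among 14443, with 3 wrong calls. The simulation took the spread of each gene from its trend with level and changed only genes with a mean above 1 CPM. It held no differences of run or dissection, so it does not give the share of real changes that the 8 samples would show. Replicates of a group differed by 17.6 to 62.9 in chi-square per gene, above sampling noise, so none was taken for a library deposited again, which does not show that they came from separate animals. Alternatives were TMM and DESeq2 size factors, other filters, the likelihood ratio test, the deposited count matrix, all 32 samples in 1 fit, run, RNA integrity and replicate number as covariates, 1 or 2 RUVr factors, and each sample left out. Leaving out pairs of samples, and DG replicates 1 and 2, was added after seeing the data. Chromatin data were not analysed here.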

Additional observations from a re-analysis of the deposited data

Results flagged for a closer look

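In groups of 4, a sample was set aside for a closer look where its gap to the nearest other sample was too large a part of the group's range by Dixon's 95% value. Of 166 groups examined (38 genes and 45 lists), 14 met this, and chance alone gives about 1 in 20. Among genes, Id4 was high in Sal 3 (32.9 CPM) and Prdm8 low in METH 1 (14.6 CPM).

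Summed lists pointed to few samples. METH 1 was high for myelin (9470 CPM) and for cortical and subicular neurons (1552 CPM) and low for CA2 and CA3 pyramidal neurons (469 CPM). Sal 4 was high for activity-induced genes (1886 CPM) and low for the unfolded protein response (2638 CPM). Choroid plexus genes were high in Sal 2 (2446 CPM) and, within METH, in METH 2 (403 CPM). METH 3 was high for striatal medium spiny neurons (1406 CPM) and low for synaptic vesicle genes (14250 CPM). Sal 1 was high for p53 targets (616 CPM), Sal 3 for interneurons (2375 CPM) and METH 4 for GABA receptors (3989 CPM).

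Hdac5 was the 1 named gene whose CA and DG groups were apart in opposite directions. In the DG they were barely apart, with saline down to 118.3 CPM and METH up to 118.0 CPM. The difference between the CA and DG effects was 0.95 on the log2 scale. Its unadjusted p was 0.000116 and its adjusted p 0.126 in edgeR's quasi-likelihood test. The crossed library numbers of DG replicates 1 and 2 bear on it.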

How the results depend on the processing

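The count of 0 DEGs became 10 with DESeq2 and 9 with the likelihood ratio test. The 639 higher genes at p under 0.05 became 380 and the 407 lower ones 208 in 1 fit of all 32 samples, and the lower ones 269 with the run as a covariate. Leaving out each sample gave 389 to 1041 higher and 234 to 598 lower genes, the highest without METH 1 and the lowest without Sal 1, with the cause not tested. The 0 genes of the CA and DG difference became 66 with DESeq2 and 2 in 1 fit of all 32 samples, and 4 genes passed an adjusted p under 0.05 in edgeR's quasi-likelihood test without CA Sal 4, 5 without DG Sal 1 and 0 without DG replicates 1 and 2 of both treatments. Other normalizations changed little (596 higher and 443 lower with TMM). Of the values recomputed for named genes, 1121 kept their side of p under 0.05, 260 lost it and 19 gained it, and none reversed. List medians moved beyond the replicate spread in 40 cases and stayed within it in 590. List counts moved by more than 1.5 times in 374 cases and stayed within that in 886. Low cell-cycle genes rest on few reads, which limits their precision.

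The samples share only a replicate number. Their deviations correlated by -0.07, 0.39, 0.22 and -0.30 for numbers 1 to 4, so the number was not taken as a pairing. With the replicate block, 670 genes were higher and 461 lower, 0 were DEGs, and the smallest adjusted p was 0.371 in edgeR's quasi-likelihood test. For the difference between CA and DG the block gave 0 such genes. Not every sample correlated best with its own number.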

Other observations

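Several lists not described above also stood above or near the share over all genes. Of 61 cytosolic ribosomal protein genes tested, 41 were higher and 6 were higher at p under 0.05, with a median log2 fold change of 0.06. Rps28 was at 22.1, 23.4, 32.9 and 22.9 CPM in saline and 30.8, 34.3, 36.9 and 33.6 CPM in METH (0.42 ± 0.13), and only METH 1 fell inside the saline range. None of these genes was at p under 0.05 once Sal 2 and METH 2 were left out. Close copies of ribosomal protein genes make their counts uncertain.

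Of 14 genes of oligodendrocyte precursors, 2 were higher (Cspg4 and Itpr2) and 1 lower (Enpp6) at p under 0.05. Cspg4, the NG2 proteoglycan of precursors and pericytes, was at 48.8, 60.9, 57.5 and 48.8 CPM in saline and 59.1, 77.2, 77.0 and 82.7 CPM in METH (0.45 ± 0.12). Enpp6, a marker of newly formed oligodendrocytes, was at 10.1, 8.78, 5.02 and 7.41 CPM in saline and 5.52, 3.55, 4.25 and 2.99 CPM in METH (-0.94 ± 0.26). Both overlapped through METH 1. Itpr2, an intracellular calcium channel, was at 42, 39.4, 40.8 and 41.9 CPM in saline and 43.9, 47, 58.3 and 48.2 CPM in METH (0.27 ± 0.09), without overlap. Cholesterol synthesis genes were lower in 20 of 24, with 1 at p under 0.05 (Sc5d, -0.26 ± 0.10), 0 to 6 as samples were left out and 7 without Sal 4 and METH 1. Interferon and antigen presentation genes had 2 higher (Isg15 and Ifit1, both under 2 CPM) and 1 lower (Stat2) of 25. Of 59 nuclear genes of the respiratory chain none was at p under 0.05, and thalamic and red blood cell markers had none either.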
